A study of Mus musculus with 30 samples.

Results

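Integrins and laminins are the receptors and the sheet proteins through which cells hold on to their basement membrane. The genes described here are the 34 whose symbol is Itga or Itgb followed by a number, Itgav, Itgal, Itgax, Itgae, or Lama, Lamb or Lamc followed by a number, among probe sets annotated to 1 symbol. They are 24 integrin genes and 10 laminin genes out of 17782 genes measured. The symbol alone decides which genes belong, but the set was chosen with earlier results of these data known. Expression arrays, 30 in all, were made from skeletal muscle and kidney of 15 mice, each 6 weeks old. A muscle and a kidney array with the same number in their sample titles were taken as the same mouse. The mice were wild type or Kif3aΔTub (labelled Kif3aKSPCre and called mutants here), in which Cre under the promoter of kidney-specific cadherin removes Kif3a, a kinesin subunit needed for primary cilia, in kidney tubules. Muscle is thus not the tissue the Cre targets. Mice of both genotypes were injected with PBS or with sActRIIB-Fc, a decoy made from the activin type IIB receptor (the trap below) that captures activins and other TGF-beta family ligands. The dose was 10 mg/kg into the peritoneum, with 2 injections a week apart. Each tissue had 3 arrays of wild type on PBS and 4 of each other group, and each array is a different animal within a tissue.

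An integrin is a pair of an alpha and a beta chain in the cell membrane. The pair decides what is bound: Itgb1 with Itga3, Itga6 or Itga7 and Itgb4 with Itga6 bind laminin, Itgb1 with Itga1, Itga2 or Itga10 binds collagen, and Itgav, Itga5 and Itga8 bind fibronectin and similar ligands, while chains paired with Itgb2 or Itgb7 belong to leukocytes. A laminin is a cross-shaped trimer of an alpha, a beta and a gamma chain that polymerises on the cell surface and anchors the rest of the basement membrane. In kidney, laminins line tubules and glomeruli, and in muscle the Lama2 laminin around each fibre is bound by Itga7 with Itgb1 and by dystroglycan, an attachment whose loss causes muscular dystrophy.

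The values are log2 intensities as deposited, so a difference of 1 is a doubling of the signal. A change below is a log2 change ± standard error from limma, and a gene was called at an adjusted p under 0.05 over all 17782 genes. Arrays of a group correlated across genes at 0.977 or more in muscle and 0.984 or more in kidney. Kif3a averaged 7.33 ± 0.12 (SD, n = 4) in untreated mutant kidneys and 7.83 ± 0.07 (SD, n = 3) in wild type (-0.50 ± 0.15, limma adjusted p = 0.011), whereas in treated kidneys it was 7.63 ± 0.30 and 7.65 ± 0.22 (SD, n = 4 each, -0.02 ± 0.14, adjusted p = 0.905). The place of its probes relative to the deleted part was not checked. Treated and untreated mutant kidneys did separate from wild type in tubule genes: the 8 proximal tubule markers averaged 11.95 to 12.11 in wild-type arrays and 8.52 to 10.75 in mutant arrays. The array furthest from its group in muscle was replicate 1 of the untreated mutants, and in kidney it was replicate 2 of the treated wild type (median correlation with their own group 0.985 and 0.987). Replicates 2 and 4 of the untreated mutants in muscle were nearly as far, at 0.986 each. The muscle arrays held muscle, with fibre markers averaging 13.74 to 13.95, against 4.08 to 4.42 for those same genes in kidney. The labels give no batch.

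In untreated mutants more of the 34 genes rose than fell in kidney, and more fell than rose in muscle. In kidney 22 rose and 6 fell, against 24.9% and 26.7% of all genes, while in muscle 1 rose and 11 fell, against 6.93% and 9.04% of all genes. A total of 9 genes rose in kidney and fell in muscle: the laminin chains Lamb1, Lamc1, Lama2 and Lama4, the integrin alpha chains Itga1, Itga4, Itga6 and Itgav, and Itgb1, the beta chain that most of these alpha chains share. They are 9 of the 22 that rose in kidney (40.9%) and 9 of the 11 that fell in muscle (81.8%). This is 26.5% of the 34 genes, where 3.65% of all genes were called in these opposite directions. Itgb8 fell in both tissues. In the fit of all 30 arrays the genotype effect was higher in kidney than in muscle for 22 of the 34 genes, against 19.7% of all genes, and lower for 3, against 17.5% of all genes. The median difference between tissues was 1.24 over the 34 genes and -0.05 over all genes.

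Promoters of 4 of these genes are shown because they stand for the patterns: Lamb1 and Lama2 moved furthest apart between tissues among the 9 genes with a promoter in the RefSeq table used, Itgb1 is the shared beta chain, and Itgb8 fell in both tissues. Each is the 250 bases before the annotated start, 5′ to 3′ on the strand of the gene, in build GRCm38.p6: Lamb1 at chr12:31265043-31265292 (plus), Lama2 at chr10:27616943-27617192 (minus), Itgb1 at chr8:128685404-128685653 (plus) and Itgb8 at chr12:119238277-119238526 (minus). Capitals mark matches to the motifs searched.
Lamb1: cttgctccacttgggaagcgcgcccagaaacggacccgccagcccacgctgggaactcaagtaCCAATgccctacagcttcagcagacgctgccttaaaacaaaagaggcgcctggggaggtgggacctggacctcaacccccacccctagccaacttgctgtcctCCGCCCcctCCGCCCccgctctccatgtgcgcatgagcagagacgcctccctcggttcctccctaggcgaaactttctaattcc
Lama2: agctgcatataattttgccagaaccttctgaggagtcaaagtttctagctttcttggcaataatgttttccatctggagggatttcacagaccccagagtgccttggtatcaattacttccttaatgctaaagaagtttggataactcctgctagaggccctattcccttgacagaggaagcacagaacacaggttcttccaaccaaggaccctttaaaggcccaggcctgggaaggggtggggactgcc
Itgb1: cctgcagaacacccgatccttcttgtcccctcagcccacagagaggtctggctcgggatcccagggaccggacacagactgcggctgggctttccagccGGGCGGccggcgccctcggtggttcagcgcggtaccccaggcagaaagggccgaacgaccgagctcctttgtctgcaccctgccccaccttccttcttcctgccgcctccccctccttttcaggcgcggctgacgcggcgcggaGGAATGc
Itgb8: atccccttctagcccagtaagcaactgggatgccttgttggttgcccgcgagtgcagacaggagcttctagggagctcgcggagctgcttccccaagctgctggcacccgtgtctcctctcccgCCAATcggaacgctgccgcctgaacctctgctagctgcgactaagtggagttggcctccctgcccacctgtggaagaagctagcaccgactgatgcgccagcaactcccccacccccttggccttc
The motifs were searched on both strands: TGANTCA of AP-1, GGAATG of the TEAD factors, GGGCGG of the Sp factors, CCAAT, the site of NF-Y, and GTCTAGAC of the SMAD factors. The Lamb1 window held the Sp letters beginning 84 and 75 bases before the start and CCAAT at 187. The Itgb1 window held the Sp letters at 151 and the TEAD letters at 7, Itgb8 held CCAAT at 126, and Lama2 held none of them. The table had a promoter for 22 of the 34 genes. In these windows the Sp letters were found for 7 of 22 genes against 32.7% of all promoters, CCAAT for 4 against 33.8%, the TEAD letters for 3 against 12.6% and the AP-1 letters for 1, Itgax, against 6.75%. The SMAD letters were in none of the 22, against 0.167% of all promoters. A match is a string of letters and was not tested for binding.

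**Figure D1:**
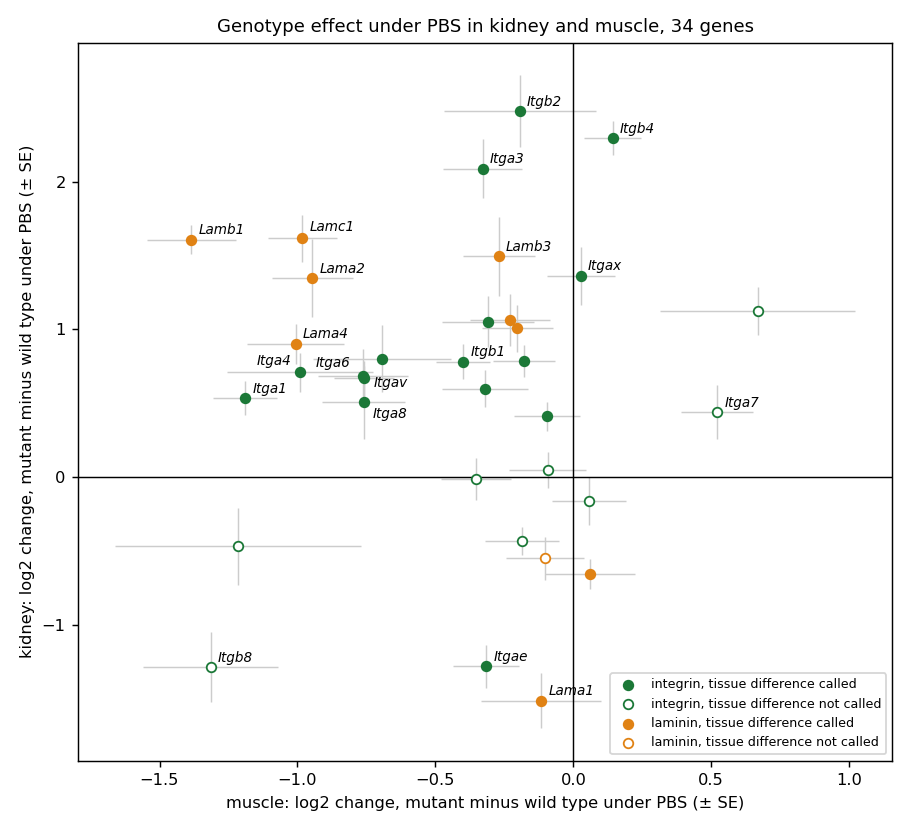
Log2 change between untreated mutants and wild type in muscle (horizontal axis) and kidney (vertical axis) for the 34 genes, with standard errors as grey lines. Filled points are genes whose difference between tissues was called, integrins in green and laminins in orange. The upper left part, higher in kidney and lower in muscle, holds Lamb1 at 1.61 and -1.38 and the other 8 genes called in opposite directions.

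In mutant kidney under PBS all 10 laminin genes were called, in both directions: Lamb1, Lamc1, Lamb3, Lama2, Lama5, Lamb2 and Lama4 rose, and Lama1, Lama3 and Lamc3 fell. Of the 24 integrin genes 15 rose and 3 fell. The background is large in this comparison: 24.9% of all genes were higher and 26.7% lower, where 64.7% and 17.6% of the 34 were. The median change was 0.70 over the 34 genes and -0.08 over all genes. In all 28 called genes the arrays of the 2 genotypes did not overlap, and 15 genes changed by at least 1 on the log2 scale. Neither count was taken over all genes, so neither sets these genes apart from other called genes. Array medians were 0.16 higher in mutant than in wild-type kidney under PBS and 0.15 higher under the trap, and 0.12 lower in mutant muscle under PBS.

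Lamc1, the gamma chain found in most laminins, gave 7.57, 7.49 and 7.75 in untreated wild-type kidneys and 9.46, 9.08, 9.24 and 9.12 in untreated mutants. Every mutant array was above every wild-type array, a 3.07-fold rise (1.62 ± 0.16, adjusted p = 7.52e-07). Lamb1, its usual beta partner, gave 10.11, 10.09 and 10.31 against 11.78, 11.63, 11.75 and 11.96 (1.61 ± 0.10, adjusted p = 6.48e-09). The values for the 2 chains lay within their standard errors of each other on the probe sets used. The second Lamc1 probe set gave 0.86, and the 3 other Lamb1 probe sets gave 0.67 to 1.67. Lama2, the muscle and interstitial alpha chain, read 6.90, 6.77 and 7.19 in wild type and 8.12, 7.90, 8.46 and 8.72 in mutants (1.35 ± 0.26, adjusted p = 0.00055). Lama4, the alpha chain of vessel walls, read 5.99, 5.66 and 6.02 against 6.68, 6.83, 6.94 and 6.72 (0.90 ± 0.13, adjusted p = 4.3e-05). Both alpha chains were higher in every mutant kidney, with the wider scatter in Lama2. Among the other chains that rose, Lamb3, a chain of the epithelial laminin under hemidesmosomes, changed by 1.50 ± 0.27, Lama5, the main alpha chain of mature epithelia, by 1.06 ± 0.18, and Lamb2, the beta chain of the mature glomerular membrane, by 1.01 ± 0.16.

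Lama1, the alpha chain of early epithelia that persists in tubule membranes, went the other way. It read 6.32, 6.63 and 6.78 in untreated wild-type kidneys and 4.66, 5.21, 5.22 and 5.16 in mutants, a 2.86-fold fall (-1.51 ± 0.19, adjusted p = 6.46e-06). Replicate 1 of the mutants was the lowest by a clear gap. Lama3, which pairs with Lamb3 in the epithelial laminin, read 7.91, 7.86 and 7.84 against 7.30, 7.23, 7.17 and 7.15 (-0.66 ± 0.10, adjusted p = 7e-05). The partners Lama3 and Lamb3 therefore moved in opposite directions. Lamc3, a rarer gamma chain, read 5.58, 5.80 and 5.61 against 5.09, 5.22, 5.27 and 4.88 (-0.55 ± 0.15, adjusted p = 0.00564).

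**Figure D2:**
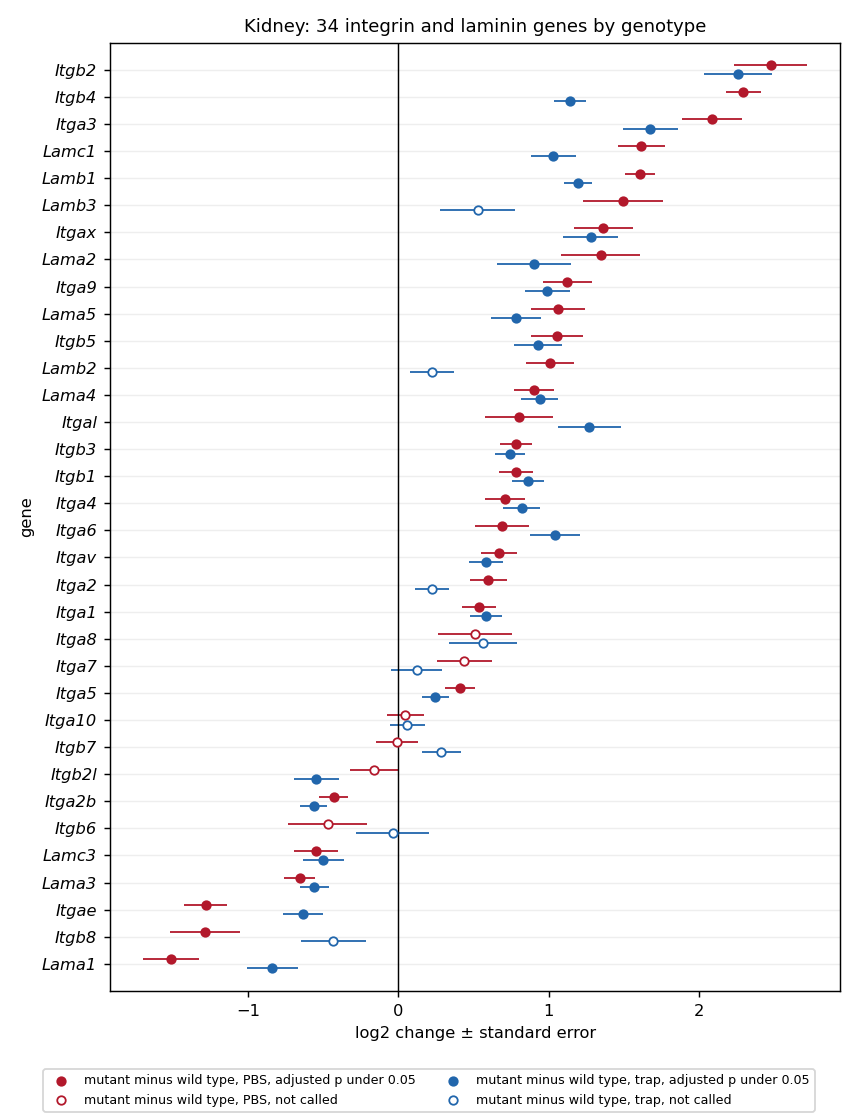
Log2 change with standard error between mutants and wild type in kidney for the 34 genes, under PBS (red) and under the trap (blue), filled where the adjusted p was under 0.05. Itgb2 at 2.48, Itgb4 at 2.29 and Itga3 at 2.09 lead under PBS and Lama1 at -1.51 is lowest, and Itgb4 is closer to 0 under the trap, at 1.14.

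Itgb4 and Itga3, chains of laminin receptors of epithelium, had the largest rises among the integrins of tissue cells, and the other laminin-binding chains Itga6 and Itgb1 rose by smaller amounts. Itgb4, the beta chain of hemidesmosomes, read 5.55, 5.89 and 5.71 in untreated wild-type kidneys and 8.17, 7.88, 7.96 and 8.04 in mutants. This was a 4.90-fold rise with little scatter (2.29 ± 0.12, adjusted p = 1.32e-09). Itga3, a laminin-binding alpha chain of podocytes and tubules, read 8.23, 7.82 and 8.15 against 10.52, 9.74, 10.26 and 10.09 (2.09 ± 0.20, adjusted p = 5.32e-07). Its 2 other probe sets gave 0.74 and 0.79, of the same sign. Itga6, the alpha partner of Itgb4, read 10.28, 9.79 and 10.15 against 11.01, 10.82, 10.57 and 10.65 (0.69 ± 0.18, adjusted p = 0.00496). Itgb1 read 10.12, 10.10 and 10.18 against 11.14, 10.86, 10.73 and 10.93 (0.78 ± 0.12, adjusted p = 4.3e-05). None of the 4 receptor genes overlapped between the genotypes, and the rise of Itga6 was smaller than that of its partner Itgb4. Itga7, the laminin receptor of muscle fibres, was not called in kidney at 0.44 ± 0.18 (adjusted p = 0.0563).

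Chains of receptors for collagen, fibronectin and related ligands also rose. Itga1, the collagen receptor of mesenchymal cells, read 8.88, 8.78 and 8.88 in wild type and 9.19, 9.65, 9.34 and 9.35 in mutants (0.54 ± 0.11, adjusted p = 0.0011). Itgav, the alpha chain that binds vitronectin, fibronectin and latent TGF-beta, read 11.39, 11.54 and 11.48 against 12.17, 12.22, 12.13 and 12.03 (0.67 ± 0.12, adjusted p = 0.000267). The other Itgav probe sets gave 0.12 and 0.15, and with the mean of its probe sets Itgav was not called (0.31, adjusted p = 0.0679). Itga4, which binds Vcam1 and fibronectin, read 5.47, 5.38 and 5.68 against 6.19, 6.03, 6.45 and 6.20 (0.71 ± 0.13, adjusted p = 0.000332). Of its 4 other probe sets 1 had the same sign, and they ranged from -0.15 to 1.14. Itga9 (1.12 ± 0.16), Itgb5 (1.05 ± 0.17), Itgb3 (0.78 ± 0.11), Itga2 (0.60 ± 0.12) and Itga5 (0.41 ± 0.10) were also called higher. Itgb3 and Itga5 had other probe sets with the opposite sign, at -0.31 and -0.06. Itga10 (0.05 ± 0.12), Itga8 (0.51 ± 0.25, adjusted p = 0.0978) and Itgb6 (-0.47 ± 0.26) were not called. The other probe set of Itgb6 gave -0.96 and that of Itga8 gave -0.04.

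Itgb8 was the partner of Itgav that was called lower. In its partnership with Itgav it binds latent TGF-beta. It read 11.19, 11.59 and 11.41 in untreated wild-type kidneys and 9.67, 10.70, 10.17 and 9.91 in mutants, 2.44-fold lower (-1.29 ± 0.24, adjusted p = 0.0003). The mutant arrays were spread over more than 1 unit, yet all lay under the wild type.

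The leukocyte integrins split. Itgb2, the beta chain of myeloid cells and lymphocytes, read 5.81, 5.35 and 5.59 in wild type and 7.95, 7.64, 8.34 and 8.32 in mutants, the largest change of the 34 genes at 5.57-fold (2.48 ± 0.24, adjusted p = 7.27e-07). Its alpha partners Itgax, of dendritic cells and macrophages, and Itgal, of lymphocytes and other leukocytes, rose by 1.36 ± 0.20 and 0.80 ± 0.23. The rise of Itgal was lost with the mean of its probe sets (0.28), the other of which gave -0.24, and without replicate 2 of the wild type (adjusted p up to 0.0756). Itgae, the alpha chain of leukocytes within epithelium, read 5.93, 5.87 and 5.91 against 4.46, 4.64, 4.99 and 4.40, a 2.43-fold fall (-1.28 ± 0.14, adjusted p = 2.76e-06). The platelet chain Itga2b fell by 0.43 (-0.43 ± 0.10), and Itgb7, the partner of Itgae, and Itgb2l, a paralogue of Itgb2, were not called at -0.01 ± 0.14 and -0.16 ± 0.16. Itgb2 and Itgb2l are related in sequence, and cross-hybridisation of their probes was not tested.

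Markers of some other cells also changed in kidney. All 12 macrophage markers rose, and their mean went from 6.39 to 6.73 in untreated wild type to 9.56 to 9.96 in mutants. The fibroblast, pericyte and smooth muscle markers rose in 8 of 10, from 8.19 to 8.50 up to 9.76 to 10.22. Collecting duct and distal markers rose in 8 of 8, from 9.01 to 9.32 up to 11.24 to 11.71, and proximal tubule markers fell in 8 of 8, from 12.01 to 12.05 down to 8.52 to 10.25. Lymphocyte markers were called higher in 2 and lower in 3 of 9 (4.85 to 5.01 against 4.80 to 5.02), endothelial markers were higher in 2 of 8 (7.22 to 7.40 against 7.61 to 7.74), and platelet markers in 2 of 5. Over all genes 24.9% rose and 26.7% fell in this comparison. The lymphocyte counts and the endothelial rises lay near these shares. The part of these cells in the changes was not tested, and in whole tissue fewer cells of a type and less RNA per cell cannot be told apart.

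**Figure D3:**
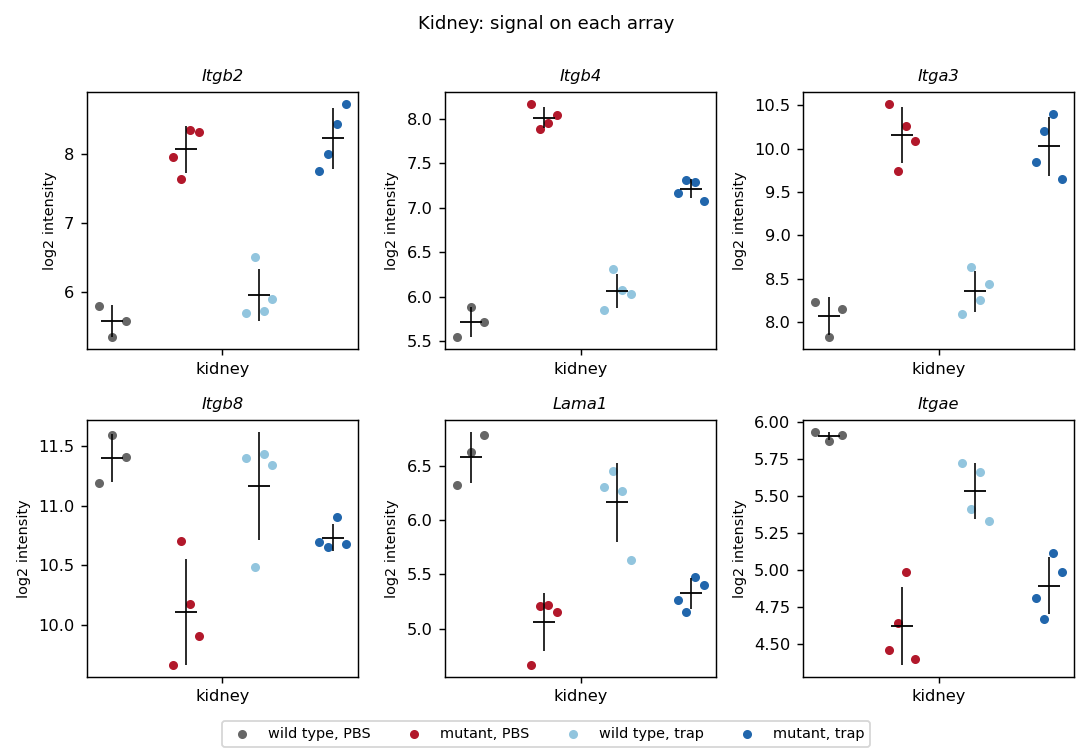
Log2 intensity on each kidney array for 6 genes, with 3 untreated wild-type arrays and 4 in each other group. Bars are the mean and SD, and each vertical axis has its own range. The treated mutants lie at 7.08 to 7.31 for Itgb4, under the untreated mutants at 7.88 to 8.17 and above all wild-type arrays.

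Under the trap the mutant kidney kept most of this pattern. Of the 34 genes 19 were higher and 6 lower than in treated wild type, against 22.2% and 24.2% of all genes, with medians of 0.58 and -0.06. The 2 comparisons share no animal. All 19 that rose under the trap had also risen under PBS, where they were 86.4% of the 22, and 5 of the 6 that fell (83.3%) were the same genes in both. The 5 largest rises were Itgb2 at 2.26 ± 0.23, Itga3 at 1.68 ± 0.18, Itgax at 1.28 ± 0.18, Itgal at 1.27 ± 0.21 and Lamb1 at 1.19 ± 0.09. The other Itgal probe set gave -0.13, though the call of Itgal was kept in all 13 other settings, at 0.57 or more. Other probe sets gave 0.52 and 0.75 for Itga3 and 0.61 to 1.19 for Lamb1. The falls were Lama1 at -0.84 ± 0.17, Itgae at -0.64 ± 0.13, Itga2b at -0.56 ± 0.09, Lama3 at -0.56 ± 0.10, Itgb2l at -0.55 ± 0.15 and Lamc3 at -0.50 ± 0.14. The other 14 rises ranged from 0.25 for Itga5, whose arrays overlapped and whose call was lost in 9 of 13 other settings, to 1.14 for Itgb4. Called under PBS alone were Lamb3 (now 0.53 ± 0.25), Lamb2 (0.22 ± 0.15), Itga2 (0.22 ± 0.11) and Itgb8 (-0.43 ± 0.22).

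Itgb4 was the gene whose genotype effect the test found to differ between trap and PBS. Treated mutants read 7.17, 7.31, 7.29 and 7.08, below the 7.88 to 8.17 of untreated mutants, and treated wild type read 5.85, 6.31, 6.08 and 6.03. The rise in mutants was 1.14 ± 0.11 under the trap against 2.29 under PBS, a difference of -1.15 ± 0.16 (adjusted p = 0.00309). It was the 1 gene of 34 called lower for this interaction and none was called higher, against 0.72% and 0.664% of all genes. Another 34-gene count, 9 at an unadjusted p under 0.05, was not taken over all genes. The other genes whose genotype effect was numerically furthest apart were Lamb3 at -0.97 ± 0.36 (adjusted p = 0.237), Itgb8 at 0.85 ± 0.32 (adjusted p = 0.238) and Lamb2 at -0.79 ± 0.22 (adjusted p = 0.0962). Their calls under PBS alone are thus not shown to be a difference between trap and PBS.

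Given to mutants, the trap changed 3 of the 34 genes in kidney. Itgal rose, from 6.26, 5.60, 6.22 and 5.72 to 6.53, 7.29, 7.15 and 7.37 (1.13 ± 0.21, adjusted p = 0.0101), with no overlap. Averaged with its second probe set, which gave 0.13, the change was 0.63 (adjusted p = 0.0105). Itgb4 fell (-0.80 ± 0.11, adjusted p = 0.00127), and Lama3 fell from 7.15 to 7.30 down to 6.68 to 6.93 (-0.42 ± 0.10, adjusted p = 0.0291). The count of 1 higher and 2 lower stands against 1.07% and 1.33% of all genes. At an unadjusted p under 0.05 there were 10 of the 34, a count not taken over all genes. Of 9 lymphocyte markers limma called 0 (1 at an unadjusted p under 0.05), with means of 4.80 to 5.02 in untreated and 4.92 to 5.17 in treated mutants, and their part in the rise of Itgal was not tested. Of the collecting duct markers 1 of 8 fell, Epcam by 0.49 (-0.49 ± 0.08). The call of Lama3 was lost in 6 of 14 other settings.

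In wild-type kidney the trap lowered Lama3 alone among the 34, from 7.84 to 7.91 down to 7.62, 7.25, 7.34 and 7.17 (-0.52 ± 0.10, adjusted p = 0.0266). That is 0 higher and 1 lower by limma, against 0.326% and 0.551% of all genes. A further count, 8 of the 34 at an unadjusted p under 0.05, was not taken over all genes. The call was lost in 8 of 13 other settings, among them each removal of a wild-type PBS array, with adjusted p up to 0.158. The other changes ranged from -0.41 for Lama1 to 0.66 for Itgal. The median change by the trap was 0.11 over the 34 genes in wild-type kidney and 0.01 in mutant kidney, against -0.00 and -0.01 over all genes.

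In untreated mutant muscle 4 laminin chains fell, Lamb1, Lama4, Lamc1 and Lama2, and the other 6 were not called. Among integrins 7 fell, led by Itgb8, Itga1 and Itga4, and Itga7 rose. In all this was 1 higher and 11 lower of 34, against 6.93% and 9.04% of all genes, with medians of -0.31 over the 34 and -0.05 over all genes. All 12 were without overlap between the genotypes, and 4 of them changed by at least 1 on the log2 scale. Neither count was taken over all genes, so neither sets these genes apart from other called genes. Without replicate 1 of the untreated mutants, the muscle array least correlated with its group, the counts of called genes were again 1 higher and 11 lower.

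Lamb1 read 9.68, 9.42 and 9.63 in untreated wild-type muscle and 8.22, 7.85, 8.16 and 8.53 in untreated mutants. This 2.61-fold fall was the largest of the 34 genes in muscle (-1.38 ± 0.16, adjusted p = 5.32e-05). Its 3 other probe sets had the same sign, at -1.57 to -0.07. Lamc1 read 9.38, 9.26 and 9.47 against 8.36, 8.34, 8.28 and 8.59 (-0.98 ± 0.13, adjusted p = 0.000114). Lama2, whose loss causes congenital muscular dystrophy, read 9.05, 8.98 and 9.21 against 8.48, 7.84, 8.09 and 8.14 (-0.95 ± 0.15, adjusted p = 0.000542). Lama4 read 8.13, 8.08 and 8.35 against 6.89, 7.14, 7.29 and 7.40 (-1.01 ± 0.18, adjusted p = 0.00128). For these 4 chains the gap between the lowest wild-type and the highest mutant array was wider than the scatter within the wild type. The chains not called were Lamb3 (-0.27 ± 0.13), Lama5 (-0.23 ± 0.14), Lamb2 (-0.20 ± 0.13), Lama1 (-0.12 ± 0.22), Lamc3 (-0.10 ± 0.14) and Lama3 (0.06 ± 0.16).

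Itga7, which joins muscle fibres to laminin, was the gene that rose. It read 8.24, 8.14 and 8.23 in wild type and 8.70, 8.49, 8.57 and 9.14 in mutants (0.52 ± 0.13, adjusted p = 0.0124). The call was lost when replicate 2 of the wild type was left out or when the 2 groups were fitted alone (adjusted p up to 0.0728). Its beta partner Itgb1 moved the other way, from 10.12, 9.94 and 10.06 to 9.67, 9.51, 9.57 and 9.81 (-0.40 ± 0.10, adjusted p = 0.011). The Itgb1 call was likewise lost in the fit of the 2 groups alone and without replicate 1 of the wild type (adjusted p up to 0.076). Itga6 read 9.00, 8.58 and 9.04 against 7.97, 7.89, 8.34 and 8.25 (-0.76 ± 0.16, adjusted p = 0.00509).

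Itga1 had the smallest adjusted p of the falls, going from 7.45, 7.24 and 7.13 to 5.90, 6.16, 6.13 and 6.15 (-1.19 ± 0.12, adjusted p = 9.47e-06). Itgav fell from 10.26, 10.10 and 10.40 to 9.38, 9.61, 9.48 and 9.49 (-0.76 ± 0.11, adjusted p = 0.000308), while its other probe sets gave -0.60 and 0.06. Itgb8 read 4.88, 5.51 and 5.53 against 4.23, 3.52, 4.10 and 4.13 (-1.31 ± 0.24, adjusted p = 0.00192), a low signal for which no detection call was used. Itga4 read 7.06, 7.03 and 7.19 against 5.07, 6.67, 6.41 and 6.25 (-0.99 ± 0.27, adjusted p = 0.0186). Replicate 1 of the mutants set much of its size, and the call was lost without replicate 2 or replicate 3 of the wild type and in the fit of the 2 groups alone (adjusted p up to 0.0775). Itga8, the nephronectin receptor, fell by 0.76 (-0.76 ± 0.15). Itgb6, an epithelial partner of Itgav, was not called at -1.21 ± 0.45 (adjusted p = 0.0757), with mutant arrays at 4.77, 7.64, 6.64 and 6.94. Itgal was not called at -0.69 ± 0.25 (adjusted p = 0.0721), nor was Itga9 at 0.67 ± 0.35, and the remaining uncalled integrins ranged from -0.35 for Itgb7 to 0.14 for Itgb4.

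Beside these genes, markers of connective tissue were lower in mutant muscle. Tendon markers fell in 6 of 7, from 8.56 to 8.92 down to 6.50 to 6.74, and the fibroblast, pericyte and smooth muscle markers in 5 of 10, from 10.05 to 10.06 down to 8.74 to 9.26. Macrophage markers fell in 4 of 12 (6.98 to 7.30 against 6.40 to 7.41), Schwann cell markers in 2 of 4 (8.30 to 8.91 against 8.02 to 8.12) and endothelial markers in 1 of 8 (7.93 to 8.35 against 7.61 to 8.10). Of the muscle fibre markers 1 of 8 fell and none rose, with means of 13.82 to 13.95 and 13.88 to 13.92, and of the satellite cell markers 1 rose and 1 fell of 6. Over all genes 6.93% rose and 9.04% fell in this comparison. The endothelial and muscle fibre counts lay near these shares. The part of these cells in the falls of the integrins and laminins was not tested.

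**Figure D4:**
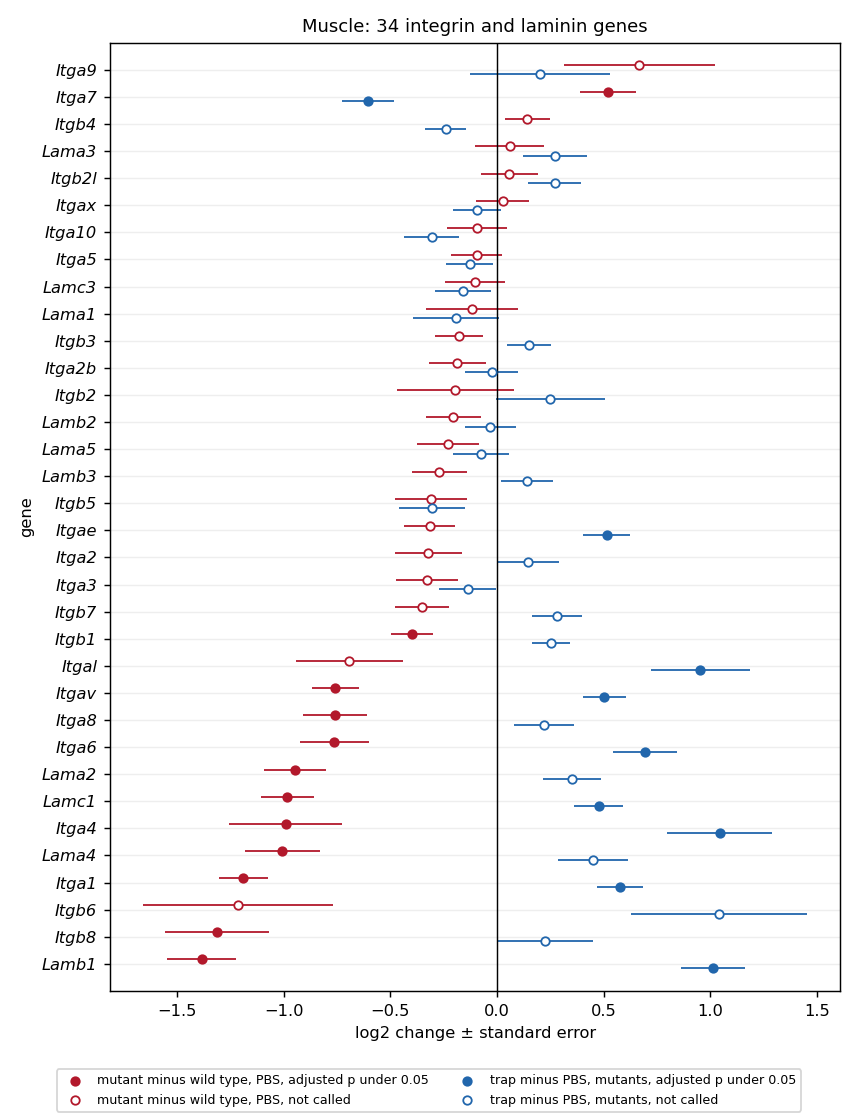
Log2 change with standard error in muscle for the 34 genes, between untreated mutants and wild type (red) and between treated and untreated mutants (blue), filled where the adjusted p was under 0.05. Both comparisons use the untreated mutant arrays, so opposite signs for a gene are not independent. Lamb1 is at -1.38 by genotype and 1.01 by trap, and Itga7 is at 0.52 and -0.61.

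In mutant muscle the trap raised 8 of the 34 genes and lowered 1, against 4.18% and 2.15% of all genes, with medians of 0.22 and 0.03. The untreated mutants are the same arrays as in the genotype comparison under PBS, so the 2 sets of changes are not independent. Lamb1 rose from 7.85 to 8.53 up to 9.18, 9.42, 8.96 and 9.26 (1.01 ± 0.15, adjusted p = 0.00182), and Lamc1 rose to 9.11, 8.91, 8.64 and 8.81 (0.48 ± 0.12, adjusted p = 0.0253). Itga4 (1.04 ± 0.25), Itga6 (0.69 ± 0.15), Itga1 (0.58 ± 0.11) and Itgav (0.50 ± 0.10) also rose, to 6.99 to 7.29, 8.60 to 9.17, 6.57 to 6.78 and 9.90 to 10.10. The treated mutant arrays of all 6 genes lay above the untreated ones. Itgal rose by 0.95 ± 0.23 and Itgae by 0.51 ± 0.11. With the mean of their probe sets the limma calls of Itgav, Itga1 and Itgae were lost (adjusted p = 0.186 for Itgav and 0.0778 for Itga1). Other probe sets gave -0.08 and 0.15 for Itgav, 0.13 for Itga1 and 0.05 for Itgae. Itga7 fell to 8.26, 8.05, 8.16 and 8.02 (-0.61 ± 0.12, adjusted p = 0.00936), into the range of untreated and treated wild type or just under it.

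The leukocyte gene Itgal read 4.91, 5.95, 4.78 and 4.67 in treated mutant muscle. Replicate 2, the high array, also had the lymphocyte markers at 6.15 where the other 3 arrays had 5.04 to 5.11, and without it the change of Itgal was 0.66 (adjusted p = 0.0377). The call of Itgal was lost when replicate 1, 3 or 4 of the untreated mutants was left out (adjusted p up to 0.0774 in these removals), in the fit of the 2 groups alone (0.0878) and with the mean of its probe sets (0.45, adjusted p = 0.0841), the other of which gave -0.06. The call of Lamc1 was lost in 7 of 14 other settings, among them the removal of replicate 1, 2 or 4 of the treated or replicate 1 or 3 of the untreated mutants (adjusted p up to 0.0856 over all settings), and that of Itga4 in 3 of 14, without replicate 2 or 4 of the treated mutants and in the fit of the 2 groups alone (adjusted p up to 0.0962). Without replicate 1 of the untreated mutants 6 genes rose and 1 fell, without Itgal and Lamc1. Fitted on the 2 groups alone, 3 of the 34 genes were called by limma. The calls lost there included those of Itga7 (adjusted p = 0.066) and Itga6 (adjusted p = 0.0514). With the mean of all probe sets 3 genes rose and 2 fell. Lama4 (0.45 ± 0.16), Lama2 (0.35 ± 0.14), Itgb1 (0.25 ± 0.09), Itgb8 (0.23 ± 0.23) and Itga8 (0.22 ± 0.14), which had fallen by genotype, were not called. In this comparison 3 of 7 tendon markers rose, to 7.03 to 7.48, and 3 fibroblast, pericyte and smooth muscle markers rose and 2 fell of 10 (9.19 to 9.49). Macrophage markers rose in 2 of 12, with 8 at an unadjusted p under 0.05 and means of 7.02 to 7.60 against 6.40 to 7.41, and platelet markers rose in 2 of 5 (5.53 to 5.69 against 5.14 to 5.37). The share called over all genes was 4.18% higher and 2.15% lower. The part of these markers in the rises was not tested.

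Between treated mutants and treated wild type, muscle still differed in 8 genes, all lower: Itgb8 (-1.21 ± 0.23), Itga1 (-0.83 ± 0.11), Lamb1 (-0.73 ± 0.15), Itga8 (-0.71 ± 0.14), Lamc1 (-0.69 ± 0.12), Lama2 (-0.56 ± 0.14), Itgav (-0.47 ± 0.10) and Itgb1 (-0.37 ± 0.09). This is 23.5% of the 34 genes lower and none higher, against 1.51% of all genes lower and 0.146% higher, with medians of -0.13 over the 34 and 0.02 over all genes. The 8 genes were all among the 11 that fell under PBS, 72.7% of them. Itga4 (-0.21 ± 0.25), Itga6 (-0.27 ± 0.15) and Lama4 (-0.54 ± 0.16) were called under PBS and not here. The test of that difference called none of the 34 genes by limma, against 0.152% of all genes higher and 0.0169% lower. At an unadjusted p under 0.05 this test had 8 of the 34, a count not taken over all genes. The largest values of this test were Itgb6 at 1.09 ± 0.61, Itga4 at 0.78 ± 0.36 and Lamb1 at 0.65 ± 0.22 (adjusted p = 0.213). A smaller genotype effect under the trap was therefore not shown for any of them. The count of 8 fell to 3 or 4 when 1 array was left out, whether replicate 1, 2 or 4 of the treated wild type or replicate 1, 3 or 4 of the treated mutants, and to 5 with median centring or the mean of all probe sets.

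In wild-type muscle the trap changed 0 of the 34 genes by limma, against 0.0337% of all genes higher and 0.0281% lower. At an unadjusted p under 0.05 there were 9 of the 34, a count not taken over all genes. The changes ranged from -0.65 ± 0.17 for Itgb5 to 0.88 ± 0.35 for Itga9. Lamb1 read 9.83, 10.21, 9.66 and 10.05 with the trap against 9.42 to 9.68 without it (0.36 ± 0.16, adjusted p = 0.41), so the arrays overlapped. Itga7 was at 8.17 to 8.31 with the trap and at 8.14 to 8.24 without it, again with overlap.

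**Figure D5:**
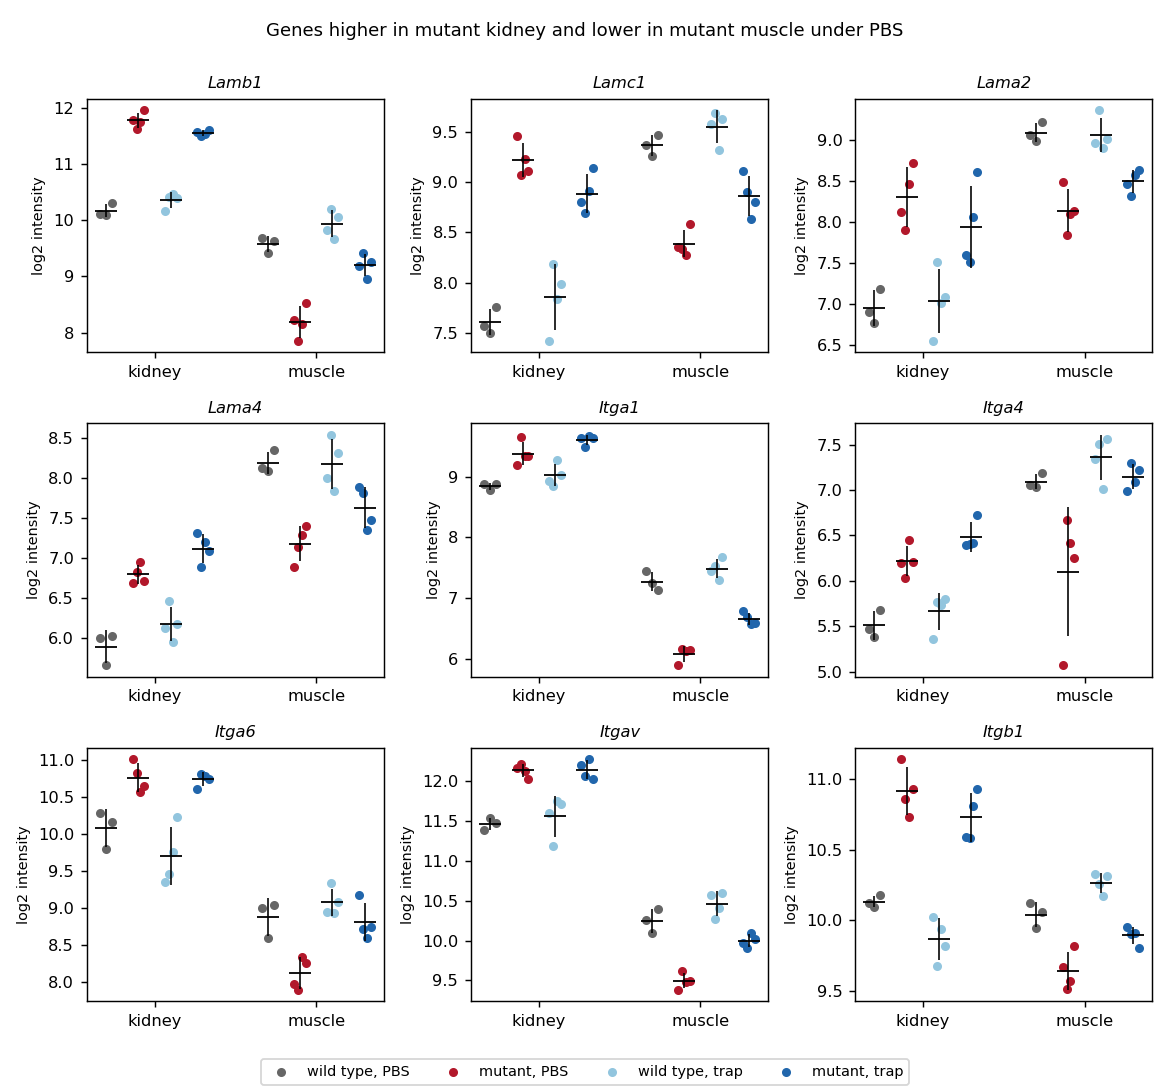
Log2 intensity on each array for the 9 genes that rose in mutant kidney and fell in mutant muscle under PBS, for the 4 groups of each tissue, with bars for the mean and SD. Each vertical axis has its own range. For Lamb1 the untreated mutants are at 11.63 to 11.96 in kidney and 7.85 to 8.53 in muscle, above and below the wild type.

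The tissue difference in the genotype effect under PBS was largest for Lamb1 at 2.99 ± 0.18 (adjusted p = 1.41e-12), followed by Itgb2 at 2.67 ± 0.38, Lamc1 at 2.60 ± 0.20, Itga3 at 2.42 ± 0.24 and Lama2 at 2.29 ± 0.30. The other 17 genes with a higher effect in kidney ranged from 0.51 for Itga5 to 2.15 for Itgb4. Lama1 at -1.40 ± 0.29, Itgae at -0.97 ± 0.18 and Lama3 at -0.72 ± 0.19 had the lower effect in kidney. For Itgb8, which fell in both, the difference was 0.03 ± 0.35 (adjusted p = 0.962). Itga7, Itga9 and Itga2b were also not called, at -0.08 ± 0.22, 0.46 ± 0.40 and -0.25 ± 0.16.

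Between untreated wild-type kidney and muscle 12 of the 34 genes were higher in kidney and 13 lower, shares of 35.3% and 38.2%, near the 28.5% and 36.1% of all genes. Itgb8 differed most, at 11.40 ± 0.20 in kidney and 5.31 ± 0.37 in muscle (SD, n = 3, difference 6.09 ± 0.27). Lama3 (2.68 ± 0.14), Lama1 (2.39 ± 0.22), Itga8 (1.67 ± 0.22) and Itga1 (1.57 ± 0.12) were also higher in kidney. Higher in muscle were Itga7 (-2.37 ± 0.16), Lama4 (-2.29 ± 0.16), Lama2 (-2.13 ± 0.23), Lamb2 (-1.82 ± 0.15) and Lamc1 (-1.77 ± 0.15). The other 7 genes higher in kidney ranged from 0.37 for Lamc3 to 1.22 for Itgav, and the other 8 higher in muscle from -0.46 for Itgb2l to -1.58 for Itga4. Itgb1 was at about the same signal in both, with a difference of 0.09 ± 0.11 (adjusted p = 0.454). The calls of Lamc3, Itgb2l and Itga2b were each lost in some other settings, in 5, 2 and 1 of them.

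Other parts of the adhesion system were taken from 4 lists. Over all genes, 24.9% rose and 26.7% fell in untreated mutant kidney and 6.93% and 9.04% in untreated mutant muscle. With the trap 1.07% rose and 1.33% fell in mutant kidney and 4.18% and 2.15% in mutant muscle. The counts of called genes below stand against these shares, which do not apply to counts at an unadjusted p. Of 16 other basement membrane genes, 14 rose and 1 fell in untreated mutant kidney, where Smoc2, a matricellular protein, changed by 2.36 ± 0.20, Agrn, the proteoglycan agrin, by 2.14 ± 0.12 and Col4a3, a glomerular type IV collagen chain, by -0.89 ± 0.19. In untreated mutant muscle 12 of the 16 fell and none rose, led by the type IV collagen chains Col4a5 (-3.43 ± 0.21) and Col4a4 (-1.98 ± 0.16). With the trap 8 of the 16 rose in mutant muscle and none fell, led by Col4a5 (1.31 ± 0.20) and the collagen-binding protein Sparc (1.08 ± 0.11). In mutant kidney limma called 0 of the 16 for the trap, with 3 at an unadjusted p under 0.05. The median change of the list was 1.26 in mutant kidney and -1.22 in mutant muscle under PBS.

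Of 19 integrin ligands, a list that holds secreted proteins and the membrane ligands Icam1, Icam2, Vcam1 and Madcam1, 16 rose and 2 fell in mutant kidney. Vcam1, bound by Itga4 with Itgb1, changed by 3.88 ± 0.32 and Ccn2, a matricellular protein, by 3.48 ± 0.34, while Icam2 changed by -0.65 ± 0.19 and Madcam1 by -0.35 ± 0.11. In mutant muscle 1 rose and 7 fell, with Ccn1 at 1.42 ± 0.38, Postn at -2.32 ± 0.63 and fibronectin, Fn1, at -1.56 ± 0.28. The arrays of Ccn1 and Postn overlapped between the genotypes. The trap raised Vcam1 (1.25 ± 0.24) and the Itga8 ligand Npnt (1.00 ± 0.24) in mutant muscle, and in mutant kidney it changed 5 of the 19, with Fgg (1.13 ± 0.28) and Fga (1.09 ± 0.23), chains of fibrinogen, higher and Npnt (-0.68 ± 0.14) lower.

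Of 23 intracellular adhesion proteins, 15 rose and 2 fell in mutant kidney. Fermt3, the kindlin of blood cells, changed by 3.01 ± 0.23, the actin crosslinker Actn1 by 2.42 ± 0.17, the talin Tln2 by -1.43 ± 0.17 and the kinase Ptk2b by -0.56 ± 0.12. In mutant muscle 2 rose, Pxn (0.80 ± 0.14) and Tns1 (0.77 ± 0.21), and 4 fell, led by Itgb1bp2 (-1.29 ± 0.24), which encodes the muscle protein melusin that binds the tail of Itgb1, and Parva (-0.64 ± 0.16). Given the trap, mutant muscle had Itgb1bp2 higher (1.14 ± 0.23) and Tns1 (-0.80 ± 0.20) and Pxn (-0.47 ± 0.13) lower. For the trap in mutant kidney limma called 0 of the 23, with 1 at an unadjusted p under 0.05.

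Of 14 genes for dystroglycan, its partners, its glycosylation and other laminin receptors, 9 rose and 3 fell in mutant kidney. Bcam, a receptor of Lama5 laminins, changed by 2.81 ± 0.15, Sgce, a sarcoglycan, by 1.65 ± 0.16, and the mannosyltransferases Pomt1 and Pomt2 by -0.92 ± 0.15 and -0.69 ± 0.13. In mutant muscle dystrophin, Dmd, rose by 0.55 ± 0.13 and Cd151, a tetraspanin that binds laminin receptors, fell (-0.91 ± 0.14), and the other 12 were not called, near the shares over all genes. The trap raised Cd151 in mutant muscle (0.47 ± 0.13), and in mutant kidney limma called 0 of the 14, with 3 at an unadjusted p under 0.05.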

How the data were processed

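RNA of snap-frozen muscle and kidney, extracted with QIAZOL, was measured on Affymetrix mouse expression arrays, as the labels' protocols state. The authors deposited 1 normalized log2 intensity per probe set and array. The log2 scale was read from the range of these values. Which normalization was applied is not stated in the labels used here. Each array is 1 animal's tissue, so tests within a tissue weigh a difference between groups against the spread between animals. Comparisons between tissues hold both tissues of an animal. The number of arrays limits the precision.

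Of 35088 probe sets, 31563 carry 1 gene symbol, 825 several and 2700 none. Only those with 1 symbol were used, with symbols checked against RefSeq GRCm38.p6 by Entrez ID (111 unmatched kept the platform's name, 0 changed). For each of 17782 genes the brightest probe set, by its mean over the arrays of the tissue, was used. Of the 34 genes, 14 have 1 probe set and 20 several. Groups were taken from the labels. Per tissue, limma 3.58.1 in R 4.3.3 was fitted to the 4 group means (lmFit, eBayes), with Benjamini-Hochberg adjustment over all genes and a threshold of 0.05. Comparisons between tissues used 1 fit of 30 arrays, with duplicateCorrelation on the animal (consensus correlation 0.0749) and the probe set brightest over all arrays. The fits were tested on simulated data.

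Replicate numbers follow the order of the samples within a group, so equal numbers across groups label no pair of animals. Same-numbered deviations correlated with a median of -0.02 in muscle (-0.24 to 0.30) and 0.04 in kidney (-0.12 to 0.34). Because the numbers are only an order, this cannot show whether animals were paired. Alternatives were the mean of a gene's probe sets, genes above the median level alone, quantile normalization, median centring, fits of the compared groups alone, the replicate block and leaving out each array.

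The members and lists were chosen with earlier results of these data known. Values per array are given for the 5 largest rises and falls in each tissue and for genes called in opposite directions. In other comparisons called genes are named, or, beyond 10, the 5 largest in each direction, and of each list the 2 largest changes in each direction. Itgb6, Itgal and a few others are named beyond that rule, chosen after their values were seen. Figures were drawn with matplotlib 3.10.9 and sequences read with Python 3.11.15.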

Additional observations from a re-analysis of the deposited data

Results flagged for a closer look

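The genotype effect under PBS differed between kidney and muscle for 25 of the 34 genes in the fit of all 30 arrays. The values are the effect in kidney minus that in muscle, on the log2 scale. Among laminins they were 2.99 for Lamb1, 2.60 for Lamc1, 2.29 for Lama2, 1.91 for Lama4, 1.77 for Lamb3, 1.29 for Lama5 and 1.21 for Lamb2, and below 0 for Lama1 (-1.40) and Lama3 (-0.72). Among integrin beta chains they were 2.67 for Itgb2, 2.15 for Itgb4, 1.36 for Itgb5, 1.18 for Itgb1 and 0.96 for Itgb3. Among alpha chains they were 2.42 for Itga3, 1.72 for Itga1, 1.70 for Itga4, 1.49 for Itgal, 1.45 for Itga6, 1.43 for Itgav, 1.34 for Itgax, 1.27 for Itga8, 0.92 for Itga2 and 0.51 for Itga5, and -0.97 for Itgae. In kidney the genotype effect on Itgb4 was lower under the trap than under PBS by the interaction test (-1.15).

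A total of 8 values stood far from the other 3 of their group, out of 84 groups of 4 values examined, where chance gives about 1 in 20. In kidney, Lama1 read 4.66 in untreated mutant replicate 1, where the others read 5.16 to 5.22. Itgb8 read 10.48 in treated wild-type replicate 2 (others 11.34 to 11.44) and 10.90 in treated mutant replicate 3 (others 10.65 to 10.69). Lamc3 read 6.23 in treated wild-type replicate 2 (others 5.52 to 5.61). Itga4 read 5.36 in treated wild-type replicate 1 (others 5.73 to 5.80) and 6.72 in treated mutant replicate 4 (others 6.39 to 6.42). In muscle, Itgb8 read 5.99 in treated wild-type replicate 2 (others 5.21 to 5.27) and Itga1 read 5.90 in untreated mutant replicate 1 (others 6.13 to 6.16). Treated wild-type replicate 2 of kidney, the array furthest from its group there, holds 2 of these values.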

How the results depend on the processing

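Of 137 calls on single genes, 111 were kept in every alternative that could test the gene, and no call changed sign in any. Among counts of called genes, restriction to genes above the median level, which tests fewer of the 34, gave 17 for genotype under PBS and 16 under the trap in kidney, 14 between the untreated wild-type tissues and 13 for the difference in genotype effect. Averaging a gene's probe sets gave 5 for genotype under the trap and 5 for the trap in mutants in muscle, median centring gave 5 for the former, and fitting the compared groups alone gave 3 for the trap in mutants in muscle and 0 for the trap in wild-type kidney. Apart from fewer genes tested, the cause was not tested. With the replicate number as a block, limma called 0 genes for the trap in wild-type kidney, as the call of Lama3 was lost, and the other counts stayed within 1.5 times. The numbers were not shown to pair the animals. Leaving out 1 array gave 3 to 8 genes for genotype under the trap in muscle and 0 to 1 for the interaction in muscle (1 without untreated mutant replicate 2). In kidney it gave 2 to 5 for the trap in mutants (5 without untreated mutant replicate 2), 0 to 2 for the trap in wild type and 1 to 3 for the interaction (3 without treated wild-type replicate 1 and 2 without untreated mutant replicate 3). How far low signals, such as that of Itgb8 in muscle, stand above background was not measured, as no detection calls were used.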
